A study of Mus musculus with 22 samples.

Results

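A set of 7 transcription factor genes of the inhibitory dorsal horn lineage, Pax2, Pax8, Lhx1, Lhx5, Gbx1, Skor1 and Tfap2b, was followed in RNA from nuclei of the lumbar dorsal horn of mice, the part of the spinal cord that receives sensory input. The 7 genes were taken by name from a table of 21363 genes, and all 7 passed the filter on low values that left 18614 genes for testing. The mice were of the pDyn-Sun1-GFP strain, in which the pDyn promoter, named for prodynorphin, drives the nuclear envelope protein Sun1 fused to GFP. Flow sorting of each animal's lumbar dorsal horns gave a GFP+ sample, called pDyn-lineage in the labels, and a GFP- sample of nuclei without the label, each of 5000 nuclei. Both populations were collected at postnatal day 7 (P7, 4 animals), P21 (3 animals) and P80 (4 animals), from males and females of the same strain, so GFP- nuclei carry the transgene too. No treatment is named in the labels. No source used here says whether a nucleus keeps GFP after the promoter falls silent.

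During development of the mouse dorsal horn, the factor Ptf1a directs precursors to an inhibitory fate, and the neurons that form then express Pax2 and Pax8 together with Lhx1, Lhx5 and Gbx1, while Tlx3 and Lmx1b mark the excitatory neurons born beside them. Pax2 and Pax8 are paired-domain factors, and Pax2 is known to be needed there for the GABA-making state. Lhx1 and Lhx5 are LIM homeodomain factors known to maintain Pax2 expression, Gbx1 is a homeodomain factor of a subset of these neurons, Skor1 is a corepressor that binds Lbx1, and Tfap2b is a factor of the AP-2 family also known from amacrine cells of the retina. Many dynorphin neurons of the dorsal horn are inhibitory, and the 7 genes are part of the program by which such neurons form.

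The genes lie apart in the genome. By the GENCODE annotation of build GRCm38, Pax8 is at chr2:24420560-24475599 on the minus strand, Pax2 at chr19:44756045-44837871 on the plus strand, Lhx1 at chr11:84518284-84525535 on the minus strand and Lhx5 at chr5:120431699-120441223 on the plus strand. Gbx1 is at chr5:24502757-24527202 on the minus strand, Skor1 at chr9:63138170-63148961 on the minus strand and Tfap2b at chr1:19208914-19238576 on the plus strand. No source used here gives the authors' own build, and the loci serve only to place the genes.

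RefSeq start-site windows, from 250 bases before to 50 bases after a transcript start on GRCm38.p6, were found for 5 of the 7 genes, 9 windows in all, and Lhx5 and Gbx1 had none in the table used. A window is printed for Skor1, Pax8 and Pax2, the 3 genes with the largest rises in GFP+ nuclei, and for Lhx1, the 1 gene that was lower. Each line is 5′ to 3′ on the gene's strand, with capitals marking matches to an E-box (CANNTG), an AP-2 site (GCCNNNGGC), a LIM homeodomain core (TAATTA) or a paired core (GTCACGC) on either strand. The windows are Skor1 at chr9:63148912-63149211 (minus strand), Pax8 at chr2:24475550-24475849 (minus strand), Pax2 at chr19:44755502-44755801 (plus strand) and Lhx1 at chr11:84525485-84525784 (minus strand).
Skor1: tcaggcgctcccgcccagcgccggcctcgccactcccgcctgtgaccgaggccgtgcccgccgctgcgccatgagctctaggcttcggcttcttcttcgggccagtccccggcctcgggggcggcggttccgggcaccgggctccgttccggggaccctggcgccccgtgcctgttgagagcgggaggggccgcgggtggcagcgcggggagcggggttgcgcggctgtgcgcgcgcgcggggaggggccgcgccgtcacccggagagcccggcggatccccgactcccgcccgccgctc
Pax8: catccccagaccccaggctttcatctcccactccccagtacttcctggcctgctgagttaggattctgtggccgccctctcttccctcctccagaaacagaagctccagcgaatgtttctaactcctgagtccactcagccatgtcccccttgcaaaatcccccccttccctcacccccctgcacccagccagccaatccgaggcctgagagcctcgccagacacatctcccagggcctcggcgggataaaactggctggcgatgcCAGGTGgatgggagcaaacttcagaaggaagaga
Pax2: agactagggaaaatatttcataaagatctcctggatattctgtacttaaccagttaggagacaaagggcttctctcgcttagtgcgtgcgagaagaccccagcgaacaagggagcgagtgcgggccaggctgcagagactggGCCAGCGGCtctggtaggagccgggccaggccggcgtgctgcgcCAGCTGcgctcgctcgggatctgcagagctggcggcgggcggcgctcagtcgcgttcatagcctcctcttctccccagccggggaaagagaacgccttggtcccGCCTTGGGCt
Lhx1: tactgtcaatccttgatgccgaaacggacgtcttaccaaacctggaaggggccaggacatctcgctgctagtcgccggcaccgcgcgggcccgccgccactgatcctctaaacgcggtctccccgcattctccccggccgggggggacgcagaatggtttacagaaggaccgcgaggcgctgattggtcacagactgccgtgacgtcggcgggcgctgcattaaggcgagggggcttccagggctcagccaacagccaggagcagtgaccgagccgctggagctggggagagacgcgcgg
The Pax8 window holds 1 E-box and the printed Pax2 window 1 E-box and 2 AP-2 matches, while the printed Skor1 and Lhx1 windows hold none of the 4 motifs. The other Pax2 windows, at chr19:44746351-44746650 and chr19:44756656-44756955, hold 0 and 2 E-boxes and no AP-2 match. Among the 32817 mouse windows of this length in the table, 72.3% hold an E-box, 16.6% an AP-2 match, 5.3% TAATTA and 2.09% GTCACGC, so a match to the E-box is common. The Tfap2b window has 1 E-box. A further core, TGGGAA, which the Ptf1a partner Rbpj binds, is in 25.6% of all windows and matched once, in another Pax2 window. Overlapping matches were allowed, and a match is only a description of the letters.

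Reads assigned to genes numbered 4244987 to 10849169 in the 22 libraries (median 5359703), and the values below, normalized read counts, are these reads after division by a library's size factor. Libraries are named by the codes the authors gave them, which could be tied to age and population but not to an animal. Pdyn, on whose promoter the sort rests, ranged from 405 to 663 in GFP+ libraries, against 0 to 15.7 in GFP- libraries. The GFP- samples hold non-neuronal nuclei as well as neurons: all 12 oligodendrocyte markers were lower in GFP+ nuclei, with summed levels of 2245 to 11586, against 30113 to 126294 in GFP- libraries, and none of the 12 was at 0 in a library. All 9 astrocyte markers were lower as well (sums of 1112 to 4616 in GFP+ libraries, against 6267 to 19286 in GFP- libraries), and 12 of 14 pan-neuronal genes were higher. Among GFP- libraries ES12, ES16 and ES8 stood apart, with a mean log2 level of the pan-neuronal genes of 8.87 to 8.89, where the other 8 had 9.40 to 9.81 and GFP+ libraries 10.03 to 10.24. Fits without ES8, ES12 and ES16 leave ES14 as the only P21 GFP- library, so their P21 values, and the P21 part of their averages, rest on 1 library assumed to vary like the other groups. In these bulk samples fewer cells of a type and less RNA per cell cannot be told apart.

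The first question was how each factor differs between pDyn-lineage nuclei and the rest of the dorsal horn. Skor1, Pax8, Pax2 and Lhx5 were several-fold higher in GFP+ nuclei, Gbx1 was higher by less, Tfap2b did not differ detectably, and Lhx1 was lower. Relative to GABA-making genes Gbx1 and Tfap2b turned negative. On that relative scale 96.6% of all genes were called lower, and the median of all genes was -1.92. On the deposited scale, averaged over the 3 ages, limma with Benjamini-Hochberg adjustment called 5 of the 7 higher and 1 lower. Of all tested genes 48.2% were called there, 22.6% higher and 25.5% lower. The median log2 difference of the 7 was 2.03, against -0.02 over all tested genes.

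**Figure D1:**
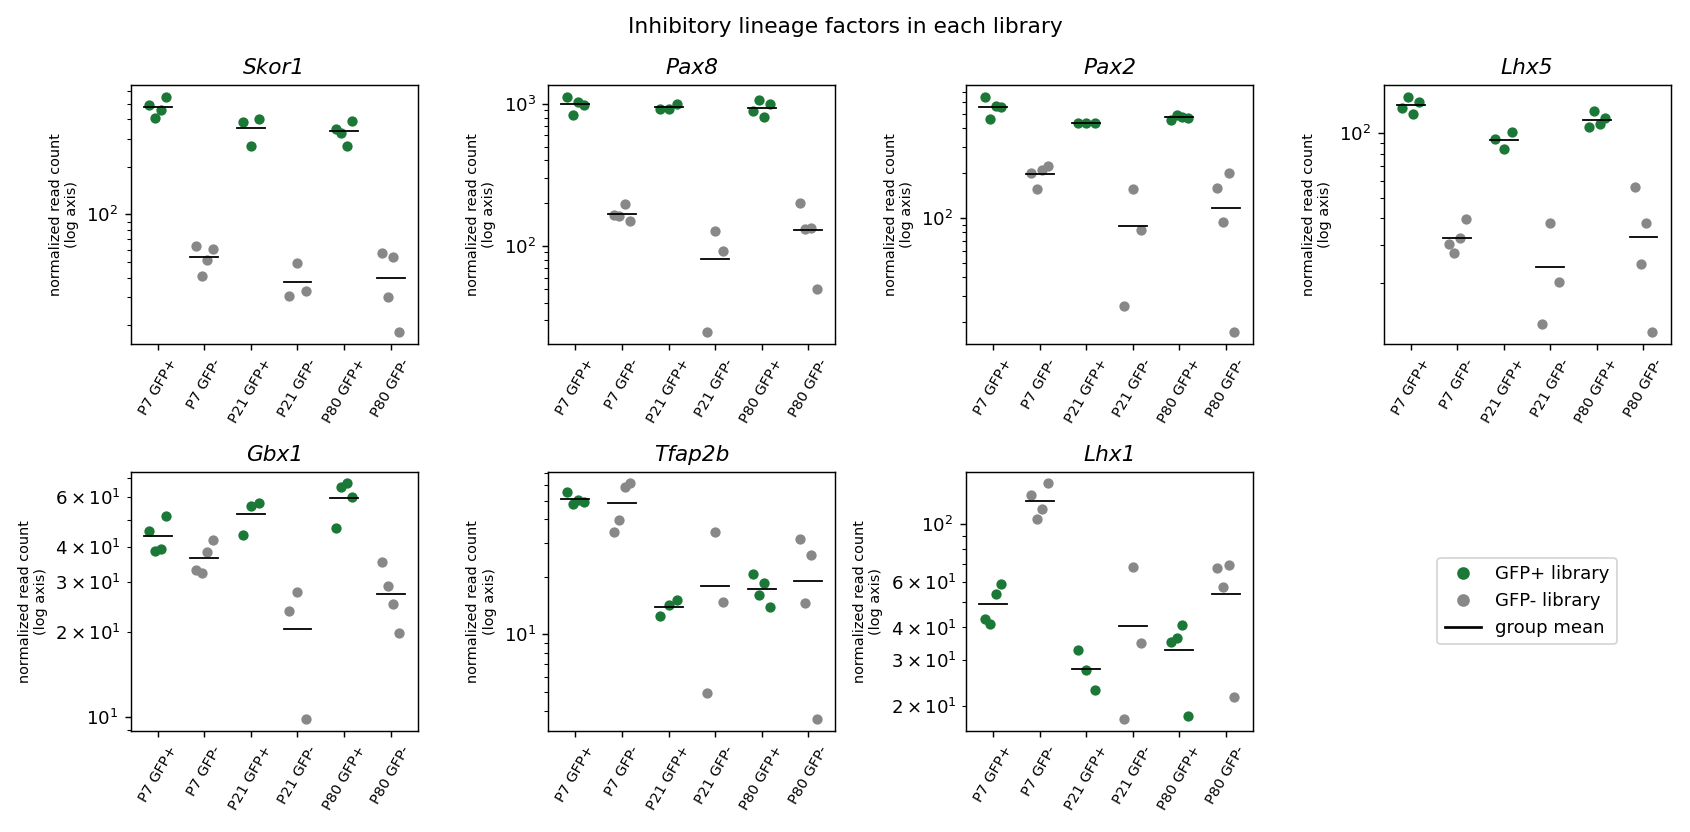
Normalized read count of each factor (vertical log axes) in every library, grouped by age and population, with GFP+ libraries in green, GFP- libraries in grey and a line at the group mean. Skor1, Pax8, Pax2 and Lhx5 are higher on this scale in every GFP+ library than in any GFP- library of the same age, as are 6.62% of all tested genes. Lhx1 lies below at P7 and Tfap2b overlaps at every age.

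Among the paired-domain genes, Pax8 had the greatest contrast. At P7 it had 1120.1, 826, 1032 and 976 normalized reads in GFP+ libraries, against 166, 161, 197 and 150.2 in GFP- libraries. At P21 it had 919, 924 and 997 in GFP+ libraries, against 24.8, 128 and 92.4 in GFP- libraries. At P80 it had 882, 1069, 802 and 1001 in GFP+ libraries, against 199.8, 132, 133 and 49.7 in GFP- libraries. The populations did not overlap at any age, and the lowest GFP- values were those of ES12 at P21 and ES8 at P80. GFP+ nuclei were higher without overlap at all 3 ages for 6.62% of all tested genes, a share that also applies to Pax2, Lhx5 and Skor1 below. The log2 difference averaged over ages was 3.12 ± 0.23 (SE; limma adjusted p = 6.88e-10, n = 11 libraries each), or 8.69-fold. The P7 difference was 2.54 ± 0.37, that of P21 3.81 ± 0.43 and that of P80 3.01 ± 0.37.

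Pax2 showed the same direction with a smaller contrast at P7. It had 649, 461, 563 and 552 normalized reads in P7 GFP+ libraries, against 199.7, 157, 210.0 and 222 in P7 GFP- libraries. In P21 GFP+ libraries it had 430.2, 432 and 433, against 25.8, 157 and 83.7 in P21 GFP- libraries. In P80 GFP+ libraries it had 455, 489, 476 and 465.6, against 158, 94.0, 201 and 17.2 in P80 GFP- libraries. GFP+ libraries were close together and above every GFP- library of their age, and ES12 and ES8 were again the lowest. The averaged difference was 2.18 ± 0.33 on the log2 scale (limma adjusted p = 1.4e-05), or 4.55-fold. At P7 the difference of 1.49 ± 0.54 did not pass over all 22 libraries (limma adjusted p = 0.0615), where 17.2% of genes did. Without ES8, ES12 and ES16 the same P7 difference passed (adjusted p = 1.61e-07), as it did without any 1 of ES6, ES8, ES12 and ES14, with edgeR (0.0276), with DESeq2 (0.00505) and with a pseudocount of 10 (0.0345). Relative to GABA genes it was -0.092 and did not pass.

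The LIM homeodomain pair split. Lhx5 had 132, 148, 123 and 141 normalized reads in P7 GFP+ libraries, against 30.5, 27.4, 32.5 and 39.7 in P7 GFP- libraries. At P21 it had 94.2, 84.3 and 101 in GFP+ libraries, against 12.9, 37.9 and 20.2 in GFP- libraries. At P80 it had 107, 127, 111 and 118 in GFP+ libraries, against 56.2, 24.6, 38.1 and 11.8 in GFP- libraries. No GFP- library reached a GFP+ library of its age. The averaged difference was 2.03 ± 0.20 (limma adjusted p = 3.12e-08), or 4.09-fold, with nearly the same size at P7 (2.04 ± 0.33), P21 (2.06 ± 0.38) and P80 (1.996 ± 0.33), although at P21 it was -0.19 relative to GABA genes.

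The other LIM gene, Lhx1, went the other way. It had 43.2, 41.2, 53.9 and 58.6 normalized reads in P7 GFP+ libraries, against 128, 104, 113 and 143 in P7 GFP- libraries. At P21 it had 32.9, 27.4 and 23.1 in GFP+ libraries, against 17.8, 68.3 and 35.0 in GFP- libraries. At P80 it had 35.3, 36.4, 41.0 and 18.3 in GFP+ libraries, against 67.9, 57.0, 69.2 and 21.7 in GFP- libraries. The populations were apart at P7, where 15.7% of all genes were lower in GFP+ nuclei without overlap. They overlapped at P21 and P80, where ES12 at P21 and ES8 at P80 were the GFP- libraries within or below the GFP+ range. Averaged over ages Lhx1 was lower by the test, at -0.76 ± 0.22 (limma adjusted p = 0.00671), with -1.30 ± 0.36 at P7 (adjusted p = 0.0149), -0.34 ± 0.42 at P21 (0.13 without ES14) and -0.63 ± 0.36 at P80. Without ES8, ES12 and ES16 the average was -1.20 and the P80 difference -1.02 (adjusted p = 0.00149). The P21 difference in that fit, -1.28, sets the GFP+ libraries against ES14 alone, the highest of the 3 P21 GFP- libraries.

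Gbx1, the homeodomain gene of a subset of inhibitory neurons, had 45.4, 38.7, 39.2 and 51.5 normalized reads in P7 GFP+ libraries, against 33.3, 32.3, 38.4 and 42.5 in P7 GFP- libraries. At P21 it had 44.3, 55.9 and 57.1 in GFP+ libraries, against 23.8, 27.8 and 9.85 in GFP- libraries. At P80 it had 46.7, 65.3, 67.1 and 60.1 in GFP+ libraries, against 35.3, 29.1, 25.1 and 19.9 in GFP- libraries. The populations overlapped at P7 and were apart at P21 and P80, where 18.9% and 14.9% of all genes were higher in GFP+ nuclei without overlap. The averaged difference was 0.93 ± 0.16 (limma adjusted p = 5e-05), or 1.91-fold, with 0.25 ± 0.26 at P7 (adjusted p = 0.59), 1.42 ± 0.30 at P21 (adjusted p = 0.00115) and 1.12 ± 0.26 at P80 (adjusted p = 0.00259). Without ES8, ES12 and ES16, with ES14 as the only P21 GFP- library, the P21 difference was 0.88 (adjusted p = 0.0736), while without any 1 library it stayed between 0.99 and 1.70 and passed.

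Skor1, the corepressor gene, had the greatest averaged difference of the 7. It had 492, 408, 456 and 552 normalized reads in P7 GFP+ libraries, against 62.9, 41.1, 51.3 and 60.5 in P7 GFP- libraries. At P21 it had 383, 272 and 397 in GFP+ libraries, against 30.7, 49.3 and 32.8 in GFP- libraries. At P80 it had 348, 324, 269.8 and 391 in GFP+ libraries, against 57.5, 30.2, 54.1 and 18.1 in GFP- libraries. Every GFP+ library was several-fold above every GFP- library. The log2 difference was 3.16 ± 0.16 (limma adjusted p = 2.72e-12), or 8.94-fold, and 3.13 ± 0.27, 3.20 ± 0.31 and 3.15 ± 0.27 at P7, P21 and P80.

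Tfap2b, the AP-2 gene, was not separated by the sort. It had 55.7, 47.7, 50.3 and 49.2 normalized reads in P7 GFP+ libraries, against 34.2, 39.5, 59.1 and 61.4 in P7 GFP- libraries. At P21 it had 12.5, 14.2 and 15.0 in GFP+ libraries, against 4.95, 34.1 and 14.8 in GFP- libraries. At P80 it had 20.8, 16.1, 18.6 and 13.9 in GFP+ libraries, against 31.3, 14.5, 26.1 and 3.62 in GFP- libraries. The populations overlapped at every age, and the P21 and P80 values rest on 4 to 27 reads per library. The averaged difference was 0.10 ± 0.30 (95% confidence interval -0.52 to 0.72, limma adjusted p = 0.809). It took the other sign with edgeR (-0.11) and DESeq2 (-0.12), and without ES8, ES12 and ES16 it was -0.51 (adjusted p = 0.0338), a value whose P21 part rests on ES14.

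By age, limma called 3 of the 7 higher and 1 lower at P7, where 17.2% of all genes were called (10.1% lower), 5 higher at P21, where 32.9% were called (18.3% lower), and 5 higher at P80, where 28% were called (15.4% lower). Genes called higher made up 7.06% of those tested at P7, 14.7% at P21 and 12.6% of those at P80. Skor1, Pax8, Pax2 and Lhx5 were higher in GFP+ nuclei without overlap at all 3 ages, a pattern held by 6.62% of all tested genes, while 8.38% were lower without overlap. The size of the population difference did not pass a test of change with age for any of the 7 (limma interaction with 2 degrees of freedom, 0.951% of all genes called). The adjusted p nearest to the threshold was that of Gbx1 (0.282), followed by Pax8 (0.532), and at an unadjusted p under 0.05 Gbx1 alone passed this test. For pairs of ages, none of the 7 passed at P21 against P7 (0.0107% of all genes called, all of them with a higher difference) or at P80 against P7 (2.07% called, 0.424% higher and 1.65% lower), and 2 of the 7 and 1 of the 7 had an unadjusted p under 0.05.

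**Figure D2:**
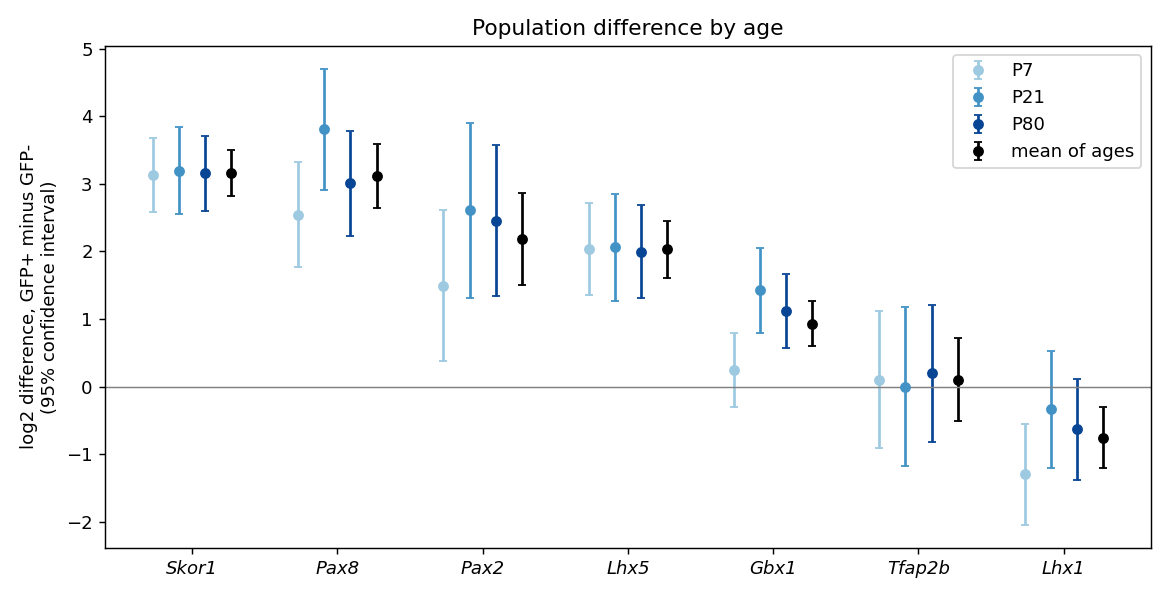
Log2 difference of GFP+ minus GFP- nuclei (vertical axis, with 95% confidence intervals from limma) for each factor at P7, P21, P80 and averaged over the ages. Skor1 and Lhx5 stay near 3.16 and 2.03 at each age, Gbx1 is at 0.25 at P7 and 1.42 at P21, and Lhx1 lies below 0. Relative to GABA genes the Gbx1 average is -0.97, where the median of all genes is -1.92.

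Because GFP- libraries mix inhibitory neurons with other cells, the 7 genes were also measured relative to the mean log2 level of Gad1 and Gad2, which encode the enzymes that make GABA, and Slc32a1, which encodes its vesicular transporter. These 3 genes were themselves higher in GFP+ nuclei, by 1.82 ± 0.16, 1.91 ± 0.17 and 1.97 ± 0.19 on the log2 scale. On the relative scale 0 means a difference as large as theirs, the median of all genes was -1.92, and 97% of genes were called, with 96.6% of all genes lower and 0.398% higher. Skor1 and Pax8 were higher, at 1.26 ± 0.17 (limma adjusted p = 1.26e-07) and 1.22 ± 0.16 (adjusted p = 5.22e-08), and both passed at each age. The background at the single ages was 87.5% called at P7 (87.2% lower, 0.328% higher), 92.8% at P21 (92.6% lower, 0.199% higher) and 91.1% at P80 (90.8% lower, 0.317% higher). Pax2, at 0.28 ± 0.20 (adjusted p = 0.168), and Lhx5, at 0.13 ± 0.17 (adjusted p = 0.456), did not pass with these 3 genes as the reference.

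Gbx1, Tfap2b and Lhx1 were lower relative to the GABA genes, as were 96.6% of all genes. The averages of Gbx1 and Tfap2b lay above the median of all genes on this scale, -1.92, and that of Lhx1 below it. Lhx1 was at -2.66 ± 0.19 (limma adjusted p = 6.91e-12), and its relative level ranged from -5.20 to -3.52 in GFP+ libraries, against -2.06 to -0.75 in GFP- libraries, with no overlap. Tfap2b was at -1.80 ± 0.22 (adjusted p = 2.23e-08) and Gbx1 at -0.97 ± 0.23 (adjusted p = 0.000246). Lhx1 and Tfap2b passed at each age, and Gbx1 at P7 alone (-1.34 ± 0.37, adjusted p = 0.00215), with -0.82 ± 0.43 at P21 and -0.75 ± 0.37 at P80 that did not pass. By library the relative level of Pax8 was 0.03 to 0.67 in GFP+ libraries, against -1.61 to -0.18 in GFP- libraries, again with no overlap. The relative levels of the other 5 genes overlapped or touched. The share of all genes without overlap on this scale was not counted, so the gaps of Lhx1 and Pax8 are not read as particular to them.

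Relative to 14 pan-neuronal genes, the 7 took places between these scales. Skor1 (2.49 ± 0.13), Pax8 (2.45 ± 0.17), Pax2 (1.51 ± 0.24) and Lhx5 (1.36 ± 0.15) were higher in GFP+ nuclei. Lhx1 (-1.43 ± 0.18, limma adjusted p = 4.08e-07) and Tfap2b (-0.57 ± 0.23, adjusted p = 0.0326) were lower, and Gbx1 (0.26 ± 0.16, adjusted p = 0.146) did not pass. On this scale 74.3% of all genes were called, 4.67% higher and 69.6% lower, with a median of -0.69. The Tfap2b call was lost without any 1 of 9 libraries, with an adjusted p of up to 0.0834. The order of the 7 was the same on all 3 scales, since each scale shifts every gene of a library by 1 amount.

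**Figure D3:**
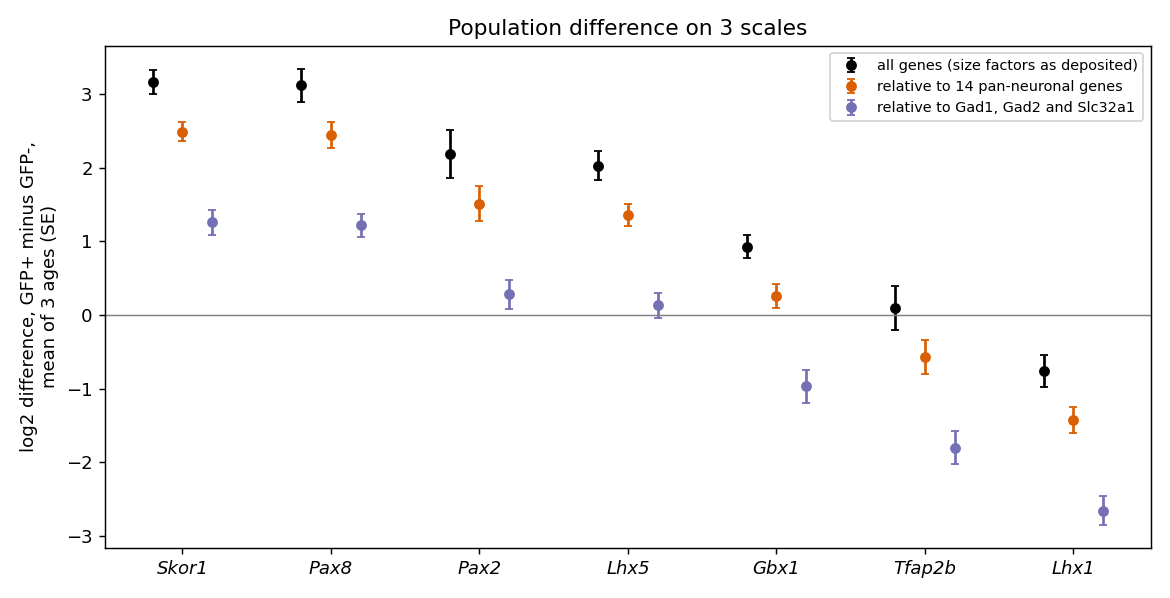
Log2 difference of GFP+ minus GFP- nuclei averaged over ages (vertical axis, points with SE) on the deposited scale, relative to 14 pan-neuronal genes and relative to Gad1, Gad2 and Slc32a1. Skor1 and Pax8 stay above 0 and Lhx1 below 0 on each scale. Relative to the GABA genes Pax2 and Lhx5 come near 0 and Gbx1 changes sign, to -0.97. Tfap2b is at -0.57 relative to pan-neuronal genes and at -1.80 relative to the GABA genes. The median of all genes is -0.69 and -1.92 on these 2 relative scales.

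Ratios between the 2 pairs of close relatives do not depend on the scale of a library. The log2 ratio of Lhx5 to Lhx1 averaged 1.67 ± 0.41 in GFP+ libraries and -1.15 ± 0.62 in GFP- libraries (SD, n = 11 each). The P7 mean was 1.46 in GFP+ and -1.88 in GFP- libraries, that of P21 1.72 in GFP+ and -0.68 in GFP- libraries, and that of P80 1.85 in GFP+ and -0.78 in GFP- libraries. No GFP- library came up to a GFP+ library: the highest GFP- ratio was -0.27 and the lowest GFP+ ratio 1.17. How many other gene pairs show such a gap was not counted, here or for the next pair. Lhx5 and Lhx1 had already been called in opposite directions in these libraries, so their ratio in part restates those calls. The difference was 2.79 (exact permutation within age, two-sided, p = 2.04e-05, the smallest that the 98000 relabellings can give, and 4.08e-05 adjusted over the 2 pairs).

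The log2 ratio of Pax8 to Pax2 averaged 0.97 ± 0.16 in GFP+ libraries and 0.06 ± 0.58 in GFP- libraries (SD, n = 11 each). It was higher in GFP+ than in GFP- nuclei by 1.05 at P7, by 1.20 at P21, and at P80 by 0.55. The overall difference was 0.93 (exact permutation within age, two-sided, p = 0.000184, also after adjustment over the 2 pairs). GFP+ and GFP- libraries were apart at P7 and P21, and at P80 the GFP- libraries spanned -0.58 to 1.48 and enclosed the GFP+ range of 0.75 to 1.13. The ratios compare 2 genes without correction for their lengths, so only their difference between populations is read here.

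**Figure D4:**
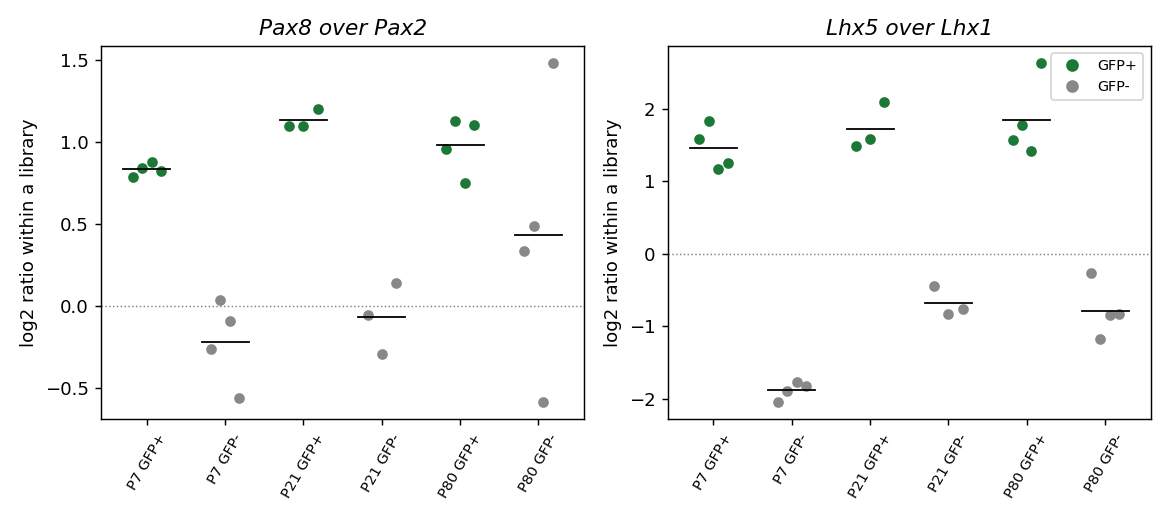
Log2 ratio within each library (vertical axes) of Pax8 to Pax2 and of Lhx5 to Lhx1, with GFP+ libraries in green, GFP- libraries in grey and a line at each group mean. The Lhx5 to Lhx1 ratio is at least 1.17 in every GFP+ library and at most -0.27 in every GFP- library, and the Pax8 to Pax2 ratio overlaps between populations at P80 only. The share of other gene pairs with such gaps was not counted.

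Age was compared next within GFP+ nuclei. Tfap2b ranged from 47.7 to 55.7 normalized reads at P7, 12.5 to 15.0 at P21 and 13.9 to 20.8 at P80. Its P7 values did not overlap the later ages, and the share of all genes with such a gap was not counted. Skor1, Pax2, Lhx5 and Lhx1 had lower means at P21 than at P7, Gbx1 a higher one, and Pax8 stayed between 938 and 989 in its 3 means. In the fit over all 22 libraries none of the 7 passed at P21 against P7 (2.33% of all genes called, 0.865% higher and 1.46% lower), at P80 against P21 (0.242%, all lower) or at P80 against P7 (9.39%, 3.48% higher and 5.91% lower). The comparisons with P7 share the P7 libraries. Tfap2b came nearest, at -1.79 ± 0.53 for P21 minus P7 (limma adjusted p = 0.0793) and -1.51 ± 0.49 for P80 minus P7 (adjusted p = 0.0555), and at an unadjusted p under 0.05 it was the 1 gene of the 7 in each of these comparisons. DESeq2 on recovered reads called Tfap2b in both (adjusted p = 0.0108 and 0.00947), and edgeR in the second (adjusted p = 0.0443). The P21 result also passed without any 1 of ES8, ES12 and ES14, and the P80 result without any 1 of ES2, ES8, ES12, ES14 and ES16. Over the alternatives its adjusted p ran from 9.44e-05 to 0.141 for P21 minus P7 and from 9.98e-05 to 0.0712 for P80 minus P7.

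The spread of the 7 genes within an age differed between the populations, and the 22-library fit uses 1 spread per gene for both. The spread of all tested genes was not computed, so the difference is not read as particular to the 7. ES8, ES12 and ES16, which stood apart, are all GFP- libraries, and their part in the spread was not tested. The SD of log2 levels within an age was 0.13 in GFP+ and 1.16 in GFP- libraries for Pax2, 0.16 in GFP+ and 0.81 in GFP- libraries for Pax8, and 0.17 in GFP+ and 1.04 in GFP- libraries for Tfap2b. It was also smaller in GFP+ than in GFP- libraries for Lhx5 (0.12 against 0.69), Gbx1 (0.21 against 0.45), Skor1 (0.23 against 0.53) and Lhx1 (0.37 against 0.68). A fit of the 11 GFP+ libraries alone, chosen after seeing the data, therefore gave smaller errors. There Tfap2b was lower at P21 (-1.79 ± 0.27, limma adjusted p = 9.44e-05) and at P80 (-1.51 ± 0.25, adjusted p = 9.98e-05) than at P7.

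In the same fit of GFP+ libraries Skor1 was lower at P21 (-0.46 ± 0.14, limma adjusted p = 0.0456) and P80 (-0.52 ± 0.13, adjusted p = 0.00722) than at P7. Lhx5 (-0.54 ± 0.14, adjusted p = 0.0144) and Pax2 (-0.35 ± 0.10, adjusted p = 0.0214) were lower at P21 than at P7, and at P80 they were at -0.23 ± 0.13 and -0.23 ± 0.09, which did not pass. Lhx1 (-0.80 ± 0.27 for P21 minus P7, adjusted p = 0.0614) did not pass. Pax8 was at -0.05 ± 0.10 for P21 minus P7 and -0.08 ± 0.10 for P80 minus P7, and Gbx1 at 0.26 ± 0.21 and 0.44 ± 0.19, none of which passed. So 4 of the 7 were called lower from P7 to P21, where 10.9% of genes were called (5.26% higher, 5.62% lower), and 2 from P7 to P80, where 22.9% were called (9.94% higher, 13% lower), with none from P21 to P80 (1.14%, 0.183% higher and 0.962% lower). The authors' deposited table of GFP+ nuclei across ages gave adjusted p-values of 2.84e-07 for Tfap2b, 0.00428 for Skor1 and 0.0326 for Pax2, all with cluster letter A. In the authors' deposited table the same test gave 0.0714 for Lhx5, 0.129 for Lhx1, 0.465 for Gbx1 and 0.917 for Pax8.

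**Figure D5:**
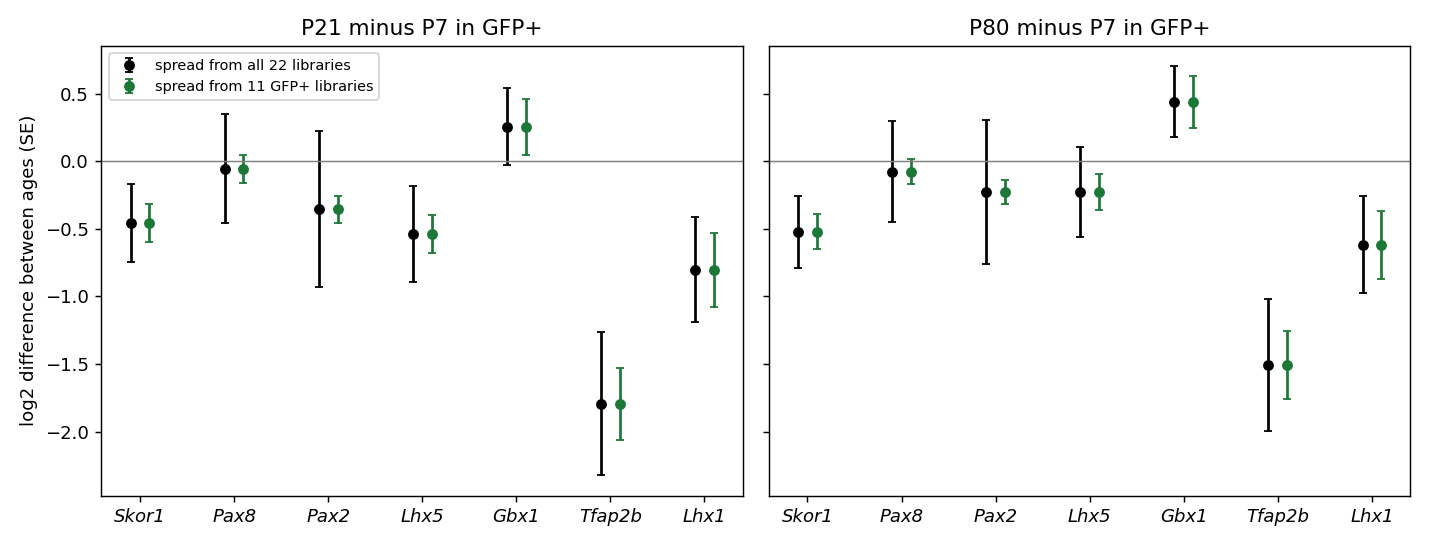
Log2 difference between ages within GFP+ nuclei (vertical axes, points with SE) for P21 minus P7 and P80 minus P7, with the spread taken from all 22 libraries or from the 11 GFP+ libraries alone. Both fits give the same differences, of which Tfap2b is the lowest at -1.79 and -1.51, and the SE is smaller in the GFP+ fit.

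Within GFP- nuclei the means of the 7 were lower at P21 and P80 than at P7, except that of Lhx5 at P80 (32.7, against 32.5 at P7). Lhx1 was at -1.76 ± 0.39 for P21 minus P7 (limma adjusted p = 0.00781) and -1.28 ± 0.36 for P80 minus P7 (adjusted p = 0.0168). Tfap2b was at -1.69 ± 0.53 (adjusted p = 0.0449) and -1.60 ± 0.49 (adjusted p = 0.0275) in the same 2 comparisons. Pax8 (-1.32 ± 0.40, adjusted p = 0.0427) and Gbx1 (-0.92 ± 0.28, adjusted p = 0.0435) also passed at P21 against P7. That made 4 of the 7 lower at P21, where 10.1% of all genes were called (5.03% higher, 5.07% lower), and 2 lower at P80, where 16.3% were called (7.56% higher, 8.77% lower). None passed between P21 and P80 (1.95% of genes called, 0.784% higher and 1.17% lower).

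These GFP- results moved with the libraries that stood apart. Of the 3 P21 GFP- libraries, ES12 and ES16 are among those with the lowest pan-neuronal levels. ES12 and ES8 had the highest oligodendrocyte sums among GFP- libraries, 126294 and 114915, where the others had at most 63741. ES16 had the highest sums of endothelial and mural (5762, others at most 1049.5), meningeal (4581, others at most 1539.7) and ependymal markers (598, others at most 71.4). Without ES8, ES12 and ES16 the P21 group is ES14 alone, and its differences from P7 were -0.82 for Lhx1, -0.45 for Tfap2b, -0.39 for Pax8 and -0.38 for Gbx1, none of which passed, in a fit that takes the spread of P21 from the other groups. The P80 calls of Lhx1 (-0.90, adjusted p = 0.00586) and Tfap2b (-1.01, adjusted p = 0.00932) held without these 3 libraries, although without ES8 alone neither passed (0.0657 and 0.103). The P80 call was also lost without ES24 for Lhx1 and without any 1 of ES4, ES22 and ES24 for Tfap2b. Leaving out 1 library at a time, the P21 call was lost for Pax8 without any 1 of 13 libraries, for Gbx1 without any 1 of 14 and for Tfap2b without any 1 of 18, while that of Lhx1 was kept in each case. Without ES12 alone the P21 difference was -0.62 for Pax8 and -1.03 for Tfap2b, and without ES16 alone it was -0.49 for Gbx1. The part that the pan-neuronal and non-neuronal marker levels of ES12, ES16 and ES8 have in the age differences was not tested.

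Ordered by the means of the 6 groups, the 4 genes with non-overlapping populations had their 3 GFP+ groups on top. The share of all genes whose age groups do not overlap was not counted, so gaps between ages are only described, here and for the other genes below. In neither fit of GFP+ nuclei did any of the 7 pass between P21 and P80. For Pax2 the order was P7, P80 and P21 GFP+ (556 ± 76.8, 472 ± 14.7 and 432 ± 1.40 normalized reads), then P7, P80 and P21 GFP- (197 ± 28.1, 117 ± 79.9 and 88.7 ± 65.7). The P80 and P21 GFP+ libraries did not overlap, the P7 and P80 GFP+ libraries did, and the GFP- neighbors overlapped. For Skor1 the P7 GFP+ libraries (477 ± 60.7) were above the P21 (350.3 ± 68.6) and P80 (333 ± 50.4) GFP+ libraries, which overlapped each other. For Pax8 the 3 GFP+ groups (989 ± 123 at P7, 947 ± 43.6 at P21 and 938 ± 119 at P80) overlapped throughout.

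For Lhx5 the order was P7 (136 ± 11.1), P80 (116 ± 9.06) and P21 (93.3 ± 8.49) in GFP+ nuclei, of which P80 and P21 did not overlap. Lhx1 was highest in P7 GFP- nuclei (122 ± 17.0), whose 4 libraries lay above all others, followed by P80 GFP- nuclei (54.0 ± 22.2) and P7 GFP+ nuclei (49.2 ± 8.39), which overlapped. Gbx1 ran from P80 GFP+ (59.8 ± 9.22) through P21 (52.4 ± 7.09) and P7 GFP+ (43.7 ± 6.05) to the GFP- groups, with every pair of neighbors overlapping. Tfap2b was highest at P7 in both populations (50.7 ± 3.46 in GFP+ and 48.6 ± 13.7 in GFP- nuclei) and between 13.9 and 18.9 in the 4 later groups, which overlapped.

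A profile over the 22 libraries carries any population difference already reported, so likeness over them in part restates it. The SD of the Skor1 profile was 1.67 over all libraries and 0.32 in GFP+ libraries alone, and that of Tfap2b 1.04 and 0.84. The genes most like each factor over the 22 libraries were those with the smallest root-mean-square difference between centered log2 profiles. For Skor1 these were Trpv6 (0.38), Kcnt2 (0.40) and Pax8 (0.48), another of the 7. For Pax8 they were Zmat4 (0.35), Fstl5 (0.36) and Kcns2 (0.40), and for Pax2 Ryr1 (0.43), Stac (0.48) and Gad2 (0.48). Lhx5 was nearest to Grin2d (0.26), Cacna2d3 (0.26) and Gad1 (0.26), the GABA synthesis gene. Gbx1 was nearest to Tenm4 (0.25), Apba2 (0.26) and Ankrd6 (0.28), Lhx1 to Col25a1 (0.38), Cdh13 (0.42) and Otof (0.42), and Tfap2b to Dgkk (0.48), Pfkp (0.52) and Lsm11 (0.53). Among the 7 themselves the closest pair was Pax8 and Skor1 (0.48), followed by Pax2 and Lhx5 (0.50), and the farthest was Lhx1 and Skor1 (2.04). Within the GFP+ libraries alone Lhx1 kept Cdh13 and Tfap2b kept Pfkp among their nearest 3, and no other gene named here was among the nearest 3 of its factor there.

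Other genes of the pathway went in both directions, as all tested genes did in the averaged comparison. There 22.6% of all tested genes were called higher and 25.5% lower, shares that stand beside each list count below. Of 22 other regulators listed for the lineage, with no order of action implied, 17 were tested, with 8 higher and 6 lower in GFP+ nuclei and a median of 0.32. The highest were Neurod2 (3.43 ± 0.27) and Prdm8 (3.21 ± 0.20), both neuronal transcription regulators, and the lowest was Pax3 (-2.89 ± 0.20), which is known from dividing precursors. Lbx1, the Skor1 partner, was at 0.32 ± 0.15 and did not pass (limma adjusted p = 0.0874). The neuronal factor genes Neurod2 and Prdm8 averaged 118 ± 38.8 and 142 ± 14.9 normalized reads in GFP+ nuclei, against 11.96 ± 6.95 and 17.0 ± 10.4 in GFP- nuclei (SD, n = 11 each).

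Of 23 listed paralogs 8 were tested, with 1 higher and 4 lower and a median of -0.46. The 1 higher gene was Tfap2a (2.22 ± 0.24), the AP-2 relative of Tfap2b, which averaged 79.6 ± 14.6 normalized reads in GFP+ nuclei and 19.2 ± 10.8 in GFP- nuclei (SD, n = 11 each). So of the AP-2 genes Tfap2a was called higher and Tfap2b was not, and the difference between them was not tested. Among the 4 lower genes, Pax6 (-1.97 ± 0.19) and Pax3 had the lowest values.

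Of 14 tested cofactors of LIM-domain and AP-2 proteins, 4 were higher and 4 lower, with a median of 0.04. Ssbp4 (0.75 ± 0.11) and Kctd15 (0.60 ± 0.14), an inhibitor of AP-2 factors, were the highest, and Lmo3 (-0.63 ± 0.17) and Ldb2 (-1.45 ± 0.12), a LIM-domain binding protein, the lowest. Of 10 genes for GABA and glycine handling 6 were higher and 3 lower. The glycine transporter gene of inhibitory neurons, Slc6a5, was higher by 1.21 ± 0.26, and Slc6a9 (-1.87 ± 0.17) and Slc6a13 (-2.58 ± 0.49), transporters of glia and meninges, were lower.

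Of 15 tested factors of excitatory dorsal horn neurons 5 were higher and 7 lower, with a median of -0.26, so that both directions occurred. Pou4f1 (2.73 ± 0.21) and Ebf3 (1.35 ± 0.10) were the highest, and Onecut2 (-1.97 ± 0.15) and Mafa (-2.09 ± 0.32) the lowest. Tlx3 was lower (-1.06 ± 0.21), and Lmx1b, its partner in excitatory fate, was at 0.02 ± 0.14 and did not pass. Of 7 tested factors of ventral inhibitory interneurons 1 was higher, Foxp4 (0.59 ± 0.11), and 2 were lower, Foxp2 (-0.63 ± 0.18) and En2 (-3.59 ± 0.36). Background shares for all lists are those given for the averaged comparison.

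Transcripts on the opposite strand overlap some of the 7 genes. In the GENCODE annotation Pax2 overlaps Gm20395 and 1700039E22Rik, and Pax8 overlaps Gm13415, all on the other strand. These 3 were also higher in GFP+ nuclei, by 2.34 ± 0.24, 2.29 ± 0.40 and 3.21 ± 0.28 on the log2 scale. No source used here says whether the counting used strand, so how reads from the shared stretches were assigned is not known. Pax2 also overlaps Mir6405 on its own strand, which was not analysed here. Lhx1, Gbx1, Skor1 and Tfap2b overlap no other annotated gene, and Lhx5 overlaps Gm27199, which was not analysed here.

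The authors' own fold changes for the 7 were also read. In the authors' deposited table over all ages the log2 fold change was 3.17 for Skor1, 3.02 for Pax8, 2.08 for Pax2, 2.04 for Lhx5, 0.90 for Gbx1, 0.05 for Tfap2b and -0.86 for Lhx1. The authors' tables for single ages hold only the libraries of that age, and their method differs from the 22-library fit, so the calls are not like for like. In the authors' deposited table for P7 Pax2 had a log2 fold change of 1.496 with an adjusted p of 2.45e-29, where the 22-library fit did not call it. In the authors' deposited table for P21 Gbx1 had 1.47 with an adjusted p of 0.153, where the 22-library fit called it.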

How the data were processed

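Nuclear RNA of sorted GFP+ and GFP- nuclei was measured by RNA-seq in 22 samples; per the labels' protocols, the NuGEN SoLo kit was used with 15 amplification cycles. Per the submitters' processing notes, cutadapt and Trim Galore, HTSeq, STAR and DESeq2 were used; no source used here gives versions, build, annotation or strand setting. The deposited per-library values, treated as a signal, come from whole-read counts per gene, which the authors scaled by a size factor for each library: divided by what 1 read is worth, 100% of values came out whole (tolerance 0.01), so whole reads could be recovered. The deposited log2 fold changes, p-values and adjusted p-values of the authors were used only for comparison, and the authors' deposited test statistic, a score, was not used.

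Columns carry library codes, and groups were taken from the authors' per-age sheets and their across-age table of GFP+ nuclei; animal and sex could not be joined to columns. Testing was limited to genes that reached 10 in 3 or more libraries. Log2(value + 1) of all 22 libraries was fitted with 6 group means in limma 3.58.1 under R 4.3.3, with its trend and robust options, two-sided, with Benjamini-Hochberg adjustment over 18614 genes and a threshold of 0.05; fold changes of low genes are understated on this scale. Relative fits subtracted the library's mean log2 level of 3 GABA genes or 14 pan-neuronal genes from every gene first. Ratios were tested by exact permutation within age. Alternatives were other pseudocounts, filters and scalings, edgeR 4.0.16 and DESeq2 1.42.0 on recovered reads, and omitted libraries. The fit was tested on simulated data. The 7 genes, the gene lists and the rule for named genes (the 3 nearest profiles of at least median expression, and the 2 highest and 2 lowest called genes of each list) were chosen with earlier results of these data known; Lbx1, Tlx3 and Lmx1b were named after their values were seen. An alternative with a wider set of reference genes, and 1 gene that the naming rule picked, are not reported here. Sequences are from RefSeq.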

Additional observations from a re-analysis of the deposited data

How the results depend on the processing

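The averaged differences of Skor1, Pax8, Pax2, Lhx5, Gbx1 and Lhx1 kept their direction and call under other pseudocounts, filters, TMM and upper-quartile scaling, edgeR, DESeq2, omission of ES8, ES12 and ES16 and omission of each library. Scaling to the GABA genes took Pax2 to 0.28 and Lhx5 to 0.13, which did not pass, and Gbx1 to -0.97; scaling to pan-neuronal genes took Gbx1 to 0.26, which did not pass. These scalings called 18052 and 13819 genes, against 8967, by construction, since they shift all genes. On the GABA scale with a pseudocount of 10, Lhx5 was at -0.12. The averaged Tfap2b difference of 0.10 was -0.11 with edgeR, -0.12 with DESeq2, -0.51 without ES8, ES12 and ES16, -1.80 relative to GABA genes and -0.57 relative to pan-neuronal genes, and ran from -0.12 to 0.31 with each library left out; the cause was not tested.

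At single ages, scaling to GABA genes turned Gbx1 to -1.34 (P7), -0.82 (P21) and -0.75 (P80), Lhx5 to -0.19 (P21), Pax2 to -0.092 (P7) and Tfap2b to -1.48 (P7) and -1.67 (P80), and scaling to pan-neuronal genes turned Gbx1 to -0.20 (P7) and Tfap2b to -0.35 (P7) and -0.40 (P80). With a pseudocount of 10 relative Lhx5 at P80 was at -0.13. Tfap2b at P80 was at -0.083 with edgeR, -0.10 with DESeq2 and -0.39 without ES8, ES12 and ES16, and at P21, where the reported value is near 0, at 0.015 with a pseudocount of 0.5, 0.0092 with TMM and 0.10 with upper-quartile scaling. With each library left out, Tfap2b ran from -0.048 to 0.23 at P7, -0.66 to 0.62 at P21 and -0.39 to 0.54 at P80, Lhx1 at P21 from -0.81 to 0.13, and relative Pax2 at P7 from -0.20 to 0.045. Relative to pan-neuronal genes, the averages ran from 0.16 to 0.36 for Gbx1, which passed without ES12, and from -0.75 to -0.45 for Tfap2b.

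For age within GFP+ nuclei, members called at P21 against P7 numbered 0, against 1 with a pseudocount of 10 or DESeq2, 2 without ES8, ES12 and ES16, 4 in GFP+ libraries alone and 0 to 1 with each library left out. At P80 against P7 they numbered 0, against 1 with a pseudocount of 10, edgeR, DESeq2 or pan-neuronal scaling, 3 without ES8, ES12 and ES16, 2 in GFP+ libraries alone and 0 to 1 with each library left out. Within GFP- nuclei the 4 calls at P21 became 2 with limma without trend and robust options or with pan-neuronal scaling, 1 with GABA scaling, 0 without ES8, ES12 and ES16 (which leaves 1 library, ES14, at P21) and 1 to 5 with each library left out. The 2 calls at P80 against P7 became 0 with GABA scaling and ran from 0 to 2 with each library left out, and the 0 calls at P80 against P21 ran from 0 to 1.

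Small age differences changed sign. In GFP+ nuclei Pax8 was at 0.068 and 0.012 (P21 minus P7) and 0.027 and 0.024 (P80 minus P7) with GABA and pan-neuronal scaling, and ran from -0.14 to 0.0085 for P21 minus P7 with each library left out. In GFP- nuclei Lhx5 was at 0.23 without ES8, ES12 and ES16, 0.22 with GABA and 0.026 with pan-neuronal scaling for P21 minus P7, and at 0.21, 0.20 and 0.063 with these settings for P80 minus P7, where it ran from -0.51 to 0.21 with each library left out. Skor1 for P21 minus P7 was at 0.26 with GABA and 0.065 with pan-neuronal scaling. No paired analysis was possible because the columns carry library codes and not the animals' numbers, although both populations came from the same animals. Gbx1, Lhx1 and Tfap2b rest on few reads, 4 to 151 per library, which limits their precision.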
